A study of Homo sapiens with 6 samples.

Results

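The genes described here are 57 genes of G2/M entry, the spindle checkpoint and chromosome condensation. They were chosen by name for what their products do, as the rows of the deposited table whose symbol is on that list, and make up 57 of its 26485 genes. All 57 were found and all 57 passed the filter on low counts, which 13562 genes passed. They fall into 9 roles: 9 cyclins, kinases and phosphatases of G2/M entry, 4 Polo and Aurora kinases, 5 spindle checkpoint genes, 7 genes of ubiquitin ligases, securin and separase, 7 centromere and kinetochore genes, 3 chromosomal passenger subunits, 11 spindle and cytokinesis genes, 4 transcription regulators of mitotic genes and 7 genes of condensin, topoisomerase and the chromosome surface.

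The study measured poly(A) RNA in HCC38, a human line of breast ductal carcinoma, triple negative and basal-like by its labels, after silencing of CIP2A. CIP2A encodes an inhibitor of the phosphatase PP2A. Controls were a mock library and the libraries of 2 siRNAs without a target, SCR#2 and SCR#3. Silencing used 3 CIP2A siRNAs of different sequence (siCIP2A#1, siCIP2A#2, siCIP2A#3), with 1 library per siRNA. All came from 1 cell line grown in the same medium, and Oligofectamine carried the siRNAs. The mock is labelled as reagent alone, whereas the design text speaks of a control without transfection. Whether the libraries stem from separate cultures is not stated. The p-values therefore measure only the spread between these libraries. Libraries of a group had different treatments, so this spread mixes differences between treatments with variation that may be technical. The time between transfection and harvest is not given in the sources used here.

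A cell enters mitosis when the kinase CDK1, bound to cyclin B, is freed from the inhibitory phosphorylation that WEE1 and PKMYT1 place on it and CDC25 phosphatases remove. Polo and Aurora kinases then drive spindle assembly, condensin compacts the chromosomes, and the spindle checkpoint holds back the anaphase-promoting complex until every kinetochore is attached. Many, but not all, of the genes for these proteins are transcribed mostly in G2 and M phase. On the promoters of such genes the DREAM and MuvB complexes act, with B-MYB (MYBL2) and FOXM1. They do so through a short element called CHR, often near CCAAT boxes bound by NF-Y.

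The 200 bases before the start site are shown for 7 members, from RefSeq promoters of GRCh38.p14 (hg38 is the same assembly), 5′ to 3′ on the strand of the gene. CCNB1 and NCAPG had CIP2A siRNA libraries that all lay below the controls, PRC1 and TOP2A had the smallest p with siCIP2A#1 and siCIP2A#2, CDK1 and PLK1 are the kinases at the core of mitotic entry, and FBXO5 had the smallest p between siCIP2A#1 and siCIP2A#3. Capitals mark CHR letters (TTTGAA or TTCGAA), the variant TTTAAA, and CCAAT, on either strand.
CCNB1 (chr5:69166950-69167149, plus strand): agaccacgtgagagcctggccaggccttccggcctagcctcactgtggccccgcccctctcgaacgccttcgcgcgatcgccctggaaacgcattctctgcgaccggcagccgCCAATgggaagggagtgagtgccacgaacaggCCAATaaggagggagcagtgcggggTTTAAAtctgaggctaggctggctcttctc
CDK1 (chr10:60778131-60778330, plus strand): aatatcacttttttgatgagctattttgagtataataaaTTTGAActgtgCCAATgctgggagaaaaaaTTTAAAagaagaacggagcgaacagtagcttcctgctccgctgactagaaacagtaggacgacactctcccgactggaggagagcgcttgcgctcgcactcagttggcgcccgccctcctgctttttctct
PLK1 (chr16:23678689-23678888, plus strand): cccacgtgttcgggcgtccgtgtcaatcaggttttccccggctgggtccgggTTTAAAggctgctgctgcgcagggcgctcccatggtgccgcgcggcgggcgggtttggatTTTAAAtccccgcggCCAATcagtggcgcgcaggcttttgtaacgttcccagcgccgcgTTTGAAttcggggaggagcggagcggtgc
PRC1 (chr15:90994536-90994735, minus strand): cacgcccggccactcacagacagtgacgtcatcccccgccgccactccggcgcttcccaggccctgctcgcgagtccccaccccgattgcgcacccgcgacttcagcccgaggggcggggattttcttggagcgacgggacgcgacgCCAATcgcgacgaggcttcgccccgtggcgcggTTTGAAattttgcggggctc
NCAPG (chr4:17810779-17810978, plus strand): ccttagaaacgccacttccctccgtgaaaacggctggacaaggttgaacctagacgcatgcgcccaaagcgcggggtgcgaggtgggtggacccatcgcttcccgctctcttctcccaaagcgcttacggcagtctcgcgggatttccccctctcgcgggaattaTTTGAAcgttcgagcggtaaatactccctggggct
TOP2A (chr17:40417897-40418096, minus strand): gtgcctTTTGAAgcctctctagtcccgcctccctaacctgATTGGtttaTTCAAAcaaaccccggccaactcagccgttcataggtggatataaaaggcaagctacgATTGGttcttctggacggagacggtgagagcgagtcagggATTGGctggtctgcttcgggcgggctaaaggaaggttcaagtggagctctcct
FBXO5 (chr6:152983580-152983779, minus strand): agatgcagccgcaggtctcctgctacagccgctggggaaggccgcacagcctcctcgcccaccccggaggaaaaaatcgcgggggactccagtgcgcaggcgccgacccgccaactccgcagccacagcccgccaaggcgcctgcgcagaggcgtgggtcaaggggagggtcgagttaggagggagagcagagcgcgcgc
These stretches hold CHR letters in CDK1, PLK1, PRC1, NCAPG and TOP2A, the TTTAAA variant in CCNB1, CDK1 and PLK1, and CCAAT in CCNB1, CDK1, PLK1, PRC1 and TOP2A. None of these motifs is in the printed stretch of FBXO5.

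A RefSeq promoter was matched for 48 of the 57 members, and AURKA, BIRC5, BUB3, FOXM1, PKMYT1, TPX2, TTK, UBE2C and WEE1 were not matched. Over the whole 300-base window, 250 bases before and 50 after the start, CHR letters on either strand stood in 32 of 48 members (66.7%), in 10.9% of the 10614 promoters of tested genes and in 16.6% of all 27305 promoters. CCAAT on either strand stood in 31 members (64.6%) and in 36.7% of tested genes, and both motifs together stood in 23 members (47.9%) and in 4.73% of tested genes. TTTAAA stood in 13 members (27.1%) and in 7.55% of tested genes. On the opposite strand TTTGAA reads TTCAAA and CCAAT reads ATTGG, while TTCGAA and TTTAAA read the same on both. A CCAAT match can overlap a neighbouring match. A match is a description of the letters and was not tested as a binding site.

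The libraries held 13995187 to 18161451 counts, and values below are CPM, that is counts relative to the library total, scaled by TMM factors of 0.982 to 1.02. CIP2A, listed as KIAA1524, stood at 98.9, 99.8 and 103.0 CPM in the mock, SCR#2 and SCR#3 libraries. In the siCIP2A#1, siCIP2A#2 and siCIP2A#3 libraries it stood at 16.3, 45.8 and 19.3 CPM, or 16.3%, 45.5% and 19.2% of the control mean. Of the basal keratins, KRT6A, KRT6B and KRT14 were at 0 in every library and KRT5 and KRT17 did not exceed 0.068 CPM, whereas KRT15 stood between 15.67 and 28.96 CPM and EGFR between 73.0 and 84.4 CPM. The 13 basal markers summed to 1131 to 1376 CPM in the controls and 1184 to 1411 CPM with the CIP2A siRNAs, and the 11 luminal markers to 816 to 1057 CPM and 751 to 1253 CPM. Summed markers of leukocytes, fibroblasts and endothelium did not exceed 19.4 CPM in any library, and PTPRC and CDH5 were at 0.

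The members took 1.22%, 1.21% and 1.26% of all counts in the mock, SCR#2 and SCR#3 libraries and 1.17%, 1.10% and 1.31% with siCIP2A#1, siCIP2A#2 and siCIP2A#3. Compared per length, as CPM per kilobase of exon averaged over the controls, TPX2 had the highest level (219.7), followed by CCNB1 (164), CDC20 (142), NCAPD2 (119) and UBE2C (106). TPX2 activates Aurora A on the spindle and NCAPD2 is a subunit of condensin I. WEE1 (3.84), PKMYT1 (4.19), LIN9 (4.39), SPC24 (5.47) and LIN54 (6.55) had the lowest levels per kilobase. Among neighbours in this order, the control ranges of TPX2 and CCNB1 did not meet, nor did those of CDC20 and NCAPD2. Those of CCNB1 and CDC20 and of NCAPD2 and UBE2C overlapped. The length used was the union of a gene's exons, which can be longer than its longest coding transcript. It was 9239 against 3436 bases for WEE1, 5034 against 2308 for PKMYT1 and 1286 against 914 for UBE2C. The order and the gaps between ranges depend on this choice, and levels per transcript length were not computed. The coefficient of variation over the 3 controls ran from 1.5% for MKI67 to 38.8% for PKMYT1, with a median of 6.14%, and was under 5% for 18 members.

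**Figure D1:**
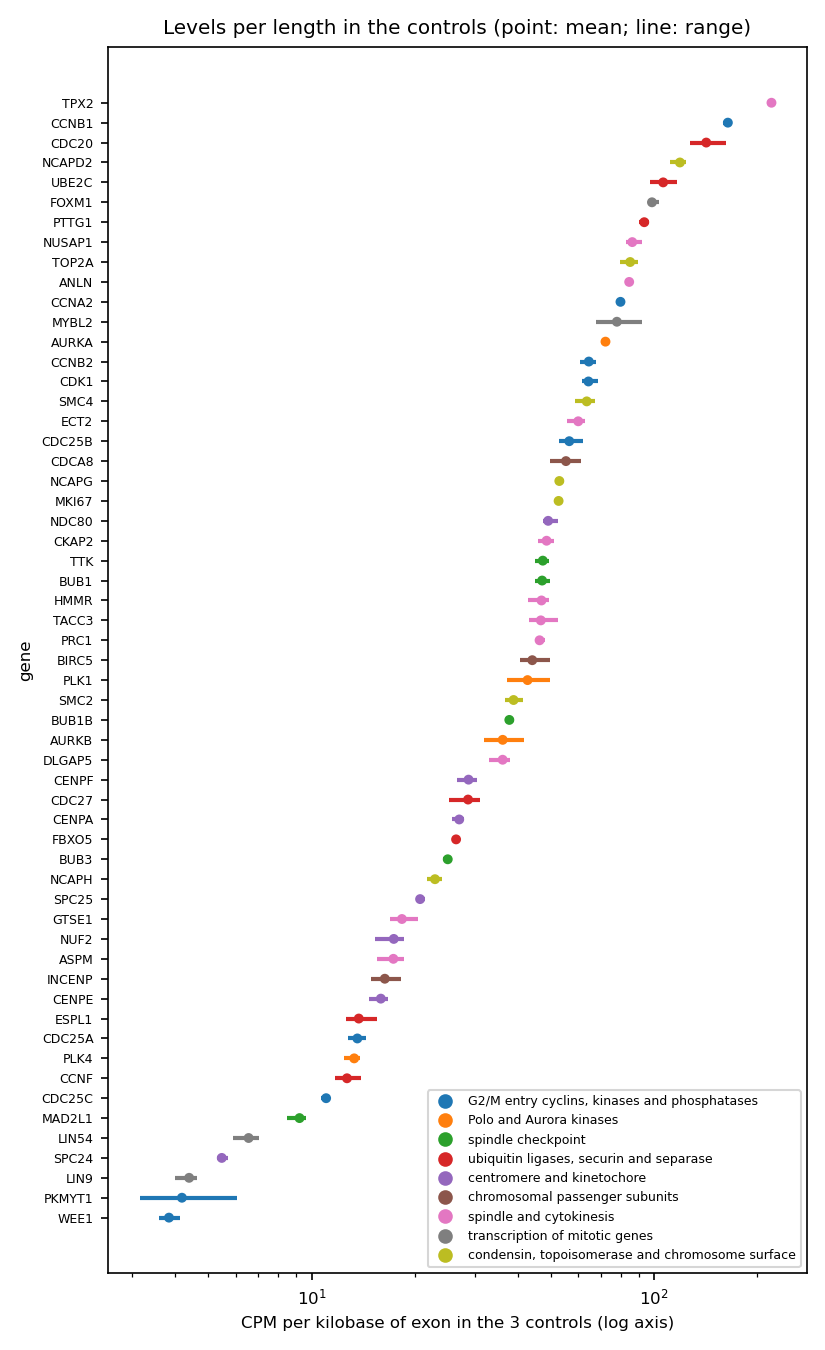
Levels per length of the 57 members in the 3 controls, as CPM per kilobase of the union of exons on a log axis. Points mark the mean, lines the range over the controls and colours the role. TPX2 stands at the top with 219.7 and WEE1 at the bottom with 3.84, and PKMYT1 has the widest line.

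Against the 3 controls as a group, the CIP2A siRNAs left no member past the test: 0 of 57 were called by edgeR at an adjusted p under 0.05, as were 0% of all 13562 genes. CIP2A itself was not called there, at a log2 difference of -1.90 (SE 0.30, edgeR adjusted p = 0.708). The 0 calls therefore do not show that the members were unchanged. At an unadjusted p under 0.05, 1 member was lower (AURKA) and none was higher, beside 1.23% of all tested genes that were lower, and DESeq2 and limma-voom also called 0. The median log2 difference over the members was -0.057 and over all tested genes -0.0011. Below 0 lay 43 of 57 members (75.4%), beside 50.3% of tested genes. In AURKA, CCNB1 and NCAPG all 3 CIP2A siRNA libraries lay below all 3 controls, which is 5.26% of members beside 4.38% of tested genes. No member had all 3 above the controls, as 3.26% of tested genes did, and the share in either direction over tested genes was 7.64%. RNA from bulk culture cannot tell fewer cells in G2 and mitosis from less RNA per cell.

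The group median rests on which siRNA libraries it holds. It was -0.15 without siCIP2A#3 and 0.0028 without siCIP2A#2. By library, the median over members of the log2 ratio of CPM to the mean of the 3 controls was -0.019, -0.015 and 0.029 for mock, SCR#2 and SCR#3. For siCIP2A#1, siCIP2A#2 and siCIP2A#3 it was -0.081, -0.20 and 0.050. The library of siCIP2A#2 was the lowest of the 6 for 28 members, siCIP2A#1 for 12, SCR#2 for 8, mock for 5, and SCR#3 and siCIP2A#3 for 2 each. That of siCIP2A#3 was the highest for 21 members, SCR#3 for 16, mock for 13, SCR#2 for 5, and siCIP2A#1 and siCIP2A#2 for 1 each. Such shares over all tested genes were not computed. Medians of the CIP2A siRNA libraries lay on both sides of those of the controls. Their order was not that of the remaining CIP2A levels, and a relation to those levels was not tested, with 1 library per siRNA.

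**Figure D2:**
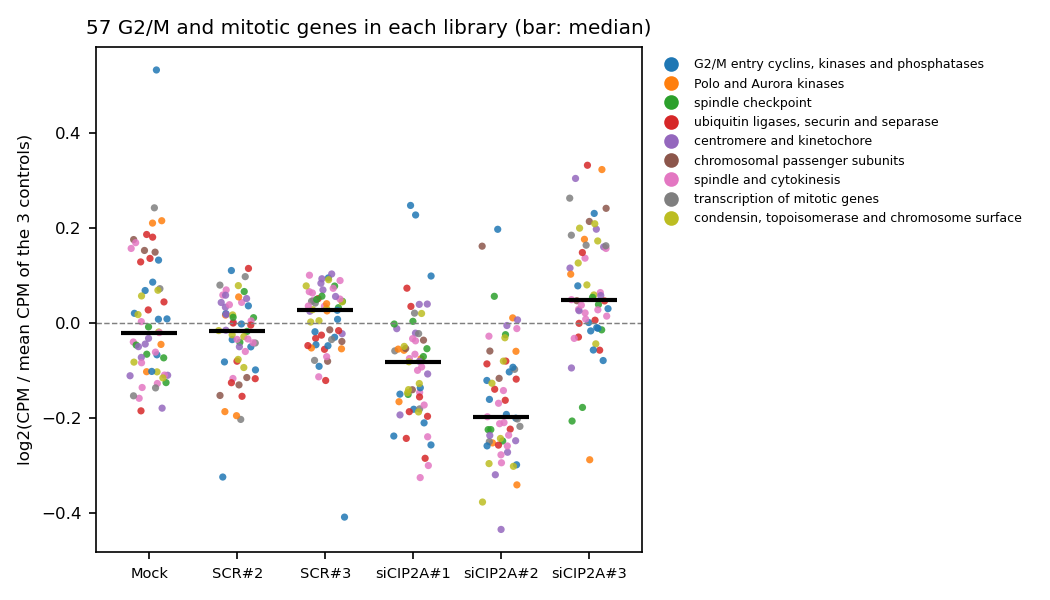
Log2 ratio of each member's CPM to the mean of the 3 controls, 1 point per gene, for the 6 libraries, with colours for the role and a black bar for the median. The bar lies at -0.20 with siCIP2A#2 and at 0.050 with siCIP2A#3, and the points that stand apart in the 3 controls (the highest in the mock, the lowest with SCR#2 and SCR#3) are PKMYT1.

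Values by gene follow in the order mock, SCR#2, SCR#3 for the controls and siCIP2A#1, siCIP2A#2, siCIP2A#3 for the CIP2A siRNAs, and ranges cover all 6 libraries. Among the cyclins, kinases and phosphatases of G2/M entry, CCNB1, the mitotic cyclin B1, stood at 425, 405 and 427 CPM in the controls and 369.9, 365 and 397 CPM with the CIP2A siRNAs. Every siRNA library was below every control, by the smallest margin with siCIP2A#3. Means were 419 ± 12.3 CPM (SD, n = 3) in the controls and 377 ± 17.3 CPM (SD, n = 3) with the CIP2A siRNAs (log2 difference -0.15, SE 0.078, edgeR adjusted p = 0.999). Its partner kinase CDK1 stood at 241, 247 and 269.9 CPM in the controls and 229.9, 221 and 258 CPM with the CIP2A siRNAs. The siCIP2A#3 library lay inside the range of the controls and the other 2 lay below it (log2 difference -0.096, SE 0.09, edgeR adjusted p = 0.999). Cyclin A2 (CCNA2) had close controls: it stood at 224, 226 and 218 CPM in the controls and 193, 181 and 235 CPM with the CIP2A siRNAs. With siCIP2A#1 and siCIP2A#2 it was below all controls and with siCIP2A#3 above them. Cyclin B2 (CCNB2) lay at 189, 171 and 181 CPM in the controls and 163, 166 and 181 CPM with the CIP2A siRNAs, with siCIP2A#3 at the level of the controls.

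The kinases that restrain CDK1 had low levels. PKMYT1 (chr16:2972808-2980446) stood at 30.5, 16.8 and 15.9 CPM in the controls and 17.6, 19.8 and 20.3 CPM with the CIP2A siRNAs. Its mock value was the highest of the 6 libraries and its 2 non-targeting values the lowest, so the controls surrounded the CIP2A siRNAs. WEE1 stood at 33.0, 38.3 and 35.0 CPM in the controls and 42.1, 29.6 and 35.2 CPM with the CIP2A siRNAs, with its highest value at siCIP2A#1 and its lowest at siCIP2A#2. Of the CDC25 phosphatases, which remove the inhibitory phosphates, CDC25A lay at 59.5, 55.9 and 52.6 CPM in the controls and 65.6, 50.1 and 65.7 CPM with the CIP2A siRNAs. It was above the controls with siCIP2A#1 and siCIP2A#3 and below them with siCIP2A#2. CDC25B ranged from 228 to 279.5 CPM and CDC25C from 31.2 to 37.8 CPM, and their groups overlapped. The median log2 difference over the 9 genes was -0.096 in the group comparison.

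Of the Polo and Aurora kinases, AURKA (chr20:56369390-56392215), which matures centrosomes and builds the spindle, stood at 205, 214 and 215 CPM in the controls and 203, 177 and 173 CPM with the CIP2A siRNAs. The siCIP2A#1 library was just below the lowest control and the other 2 were further down. Means were 211 ± 5.58 CPM (SD, n = 3) in the controls and 184 ± 16.2 CPM (SD, n = 3) with the CIP2A siRNAs (log2 difference -0.19, SE 0.088, edgeR adjusted p = 0.999), and its unadjusted p of 0.0479 was the smallest of the 57 members. PLK1, which promotes mitotic entry and spindle assembly, lay at 236, 178 and 196 CPM in the controls and 181, 205 and 218 CPM with the CIP2A siRNAs. Its mock library was the highest and its SCR#2 library the lowest, and all siRNA values lay between them (log2 difference -0.012, SE 0.11, edgeR adjusted p = 0.999). AURKB, the kinase of the chromosomal passenger complex, had the same order in the controls, at 93.7, 71.2 and 78.0 CPM in the controls and 76.9, 77.7 and 91.5 CPM with the CIP2A siRNAs. PLK4, which starts centriole duplication, stood at 55.6, 62.0 and 61.4 CPM in the controls and 57.5, 47.1 and 74.7 CPM with the CIP2A siRNAs. Its siCIP2A#2 library was the lowest and its siCIP2A#3 library the highest of the 6.

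The 5 spindle checkpoint genes had a median log2 difference of -0.081 in the group comparison. BUB1, a checkpoint kinase at kinetochores, stood at 271, 281 and 299.8 CPM in the controls and 256, 239 and 281 CPM with the CIP2A siRNAs. With siCIP2A#1 and siCIP2A#2 it was below the controls and with siCIP2A#3 inside their range (log2 difference -0.13, SE 0.088, edgeR adjusted p = 0.999). MAD2L1, whose product MAD2 inhibits CDC20, lay at 48.6, 55.5 and 54.9 CPM in the controls and 51.1, 45.4 and 46.9 CPM with the CIP2A siRNAs. The mock value lay between those of siCIP2A#3 and siCIP2A#1, while both non-targeting values were above all siRNA values (log2 difference -0.15, SE 0.10, edgeR adjusted p = 0.999). BUB1B ranged from 145 to 175 CPM and TTK from 206 to 225 CPM. BUB3 stood at 201, 209 and 212 CPM in the controls and 208, 204 and 179.7 CPM with the CIP2A siRNAs, with siCIP2A#3 alone below the controls.

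Among the genes of ubiquitin ligases, securin and separase, all 7 had a group log2 difference below 0, with a median of -0.054. FBXO5 encodes EMI1, an inhibitor of the anaphase-promoting complex. It stood at 103, 101 and 99.5 CPM in the controls and 85.6, 84.7 and 127 CPM with the CIP2A siRNAs. Its controls were within 1.86% (coefficient of variation), with siCIP2A#1 and siCIP2A#2 below all of them and siCIP2A#3 above all. CDC20, the activator of that complex in mitosis, lay at 329, 259.8 and 278 CPM in the controls and 252, 266 and 278 CPM with the CIP2A siRNAs, with the mock the highest. PTTG1, which encodes securin, stood at 194, 188 and 182 CPM in the controls and 165, 168 and 188 CPM with the CIP2A siRNAs (log2 difference -0.11, SE 0.086, edgeR adjusted p = 0.999). Its siCIP2A#3 value lay inside the control range and the others below it. UBE2C, the E2 enzyme of the complex, lay at 149, 125 and 135 CPM in the controls and 112, 129 and 141 CPM with the CIP2A siRNAs, lowest with siCIP2A#1. CDC27, a core subunit, ranged from 167 to 212 CPM, ESPL1, which encodes separase, from 109.7 to 138 CPM, and CCNF, an F-box cyclin, from 73.8 to 88.0 CPM. PTTG1 and CDC27 have close copies in the genome, and their levels are uncertain because no source used here says how reads that fit several places were counted.

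At the centromere and kinetochore, the group median over 7 genes was -0.051. CENPE, a kinetochore motor that moves chromosomes to the spindle equator, stood at 139, 154 and 158 CPM in the controls and 142, 121 and 173 CPM with the CIP2A siRNAs. NUF2, a subunit of the NDC80 complex that binds microtubules, lay at 51.6, 60.9 and 62.8 CPM in the controls and 60.1, 49.2 and 72.2 CPM with the CIP2A siRNAs. Both had the lowest value with siCIP2A#2 and the highest with siCIP2A#3. SPC24, another subunit of that complex, stood at 15.1, 15.4 and 16.2 CPM in the controls and 16.0, 11.5 and 14.6 CPM with the CIP2A siRNAs, lowest with siCIP2A#2 and inside the control range with siCIP2A#1. NDC80 ranged from 149.8 to 188 CPM, SPC25 from 33.4 to 39.6 CPM, CENPA, the histone H3 variant of centromeres, from 44.3 to 58.0 CPM, and CENPF from 311 to 375 CPM. Of the chromosomal passenger subunits, INCENP, the scaffold, lay at 81.4, 66.9 and 71.3 CPM in the controls and 66.4, 81.9 and 86.5 CPM with the CIP2A siRNAs. It was below the controls with siCIP2A#1 and above them with the other 2. BIRC5, which encodes survivin, ranged from 155 to 195 CPM and CDCA8, which encodes borealin, from 123 to 151 CPM.

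Of the 11 spindle and cytokinesis genes, 10 had a group log2 difference below 0, with a median of -0.079. PRC1, which bundles the microtubules of the central spindle, stood at 252, 249.9 and 265 CPM in the controls and 208, 211 and 257 CPM with the CIP2A siRNAs. With siCIP2A#1 and siCIP2A#2 it was below all controls, and with siCIP2A#3 between them (log2 difference -0.18, SE 0.097, edgeR adjusted p = 0.999). CKAP2, a spindle microtubule protein, lay at 208, 221 and 232 CPM in the controls and 176, 191 and 225 CPM with the CIP2A siRNAs (log2 difference -0.16, SE 0.10, edgeR adjusted p = 0.999), and NUSAP1, which also stabilises spindle microtubules, at 238, 242 and 264 CPM in the controls and 210.1, 214 and 252 CPM with the CIP2A siRNAs (log2 difference -0.14, SE 0.094, edgeR adjusted p = 0.999). Both were below the controls with siCIP2A#1 and siCIP2A#2 only. HMMR, a spindle assembly factor, stood at 169, 194 and 191 CPM in the controls and 164, 161 and 180.5 CPM with the CIP2A siRNAs (log2 difference -0.13, SE 0.091, edgeR adjusted p = 0.999), with the mock below siCIP2A#3. TPX2 lay at 794, 770.0 and 812 CPM in the controls and 743, 662 and 808 CPM with the CIP2A siRNAs and ECT2, which activates RhoA for cytokinesis, at 306, 339 and 345 CPM in the controls and 322, 269 and 363 CPM with the CIP2A siRNAs. Their lowest value was with siCIP2A#2. ANLN ranged from 452 to 531 CPM, ASPM from 169 to 202 CPM, DLGAP5 from 112 to 139 CPM, GTSE1 from 72.0 to 86.8 CPM and TACC3 from 281 to 343 CPM, and their groups overlapped.

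The transcription regulators had a group median of 0.0055. FOXM1, the forkhead factor of G2/M genes, stood at 507, 469 and 471 CPM in the controls and 426, 419 and 541 CPM with the CIP2A siRNAs. It was below the controls with siCIP2A#1 and siCIP2A#2 and above them with siCIP2A#3 (log2 difference -0.062, SE 0.10, edgeR adjusted p = 0.999). MYBL2 lay at 256, 188 and 205 CPM in the controls and 213, 182 and 259 CPM with the CIP2A siRNAs. Its mock value and its siCIP2A#3 value were close together and above the other 4 (log2 difference 0.014, SE 0.14, edgeR adjusted p = 0.999). LIN54, the MuvB subunit that binds CHR, stood at 39.9, 47.5 and 45.7 CPM in the controls and 42.6, 41.5 and 50.4 CPM with the CIP2A siRNAs (log2 difference 0.015, SE 0.12, edgeR adjusted p = 0.999), and LIN9, another MuvB subunit, ranged from 16.8 to 21.9 CPM. For both, siCIP2A#3 was the highest library. The group differences of FOXM1, MYBL2 and LIN54, like those of PLK1 and TOP2A, changed sign when single libraries were left out.

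Among condensin, topoisomerase and chromosome surface genes, NCAPG, a condensin I subunit, stood at 257, 255 and 268 CPM in the controls and 235, 219.8 and 252 CPM with the CIP2A siRNAs. Every siRNA library was below every control, with siCIP2A#3 close to the lowest of them. Means were 260.0 ± 7.21 CPM (SD, n = 3) in the controls and 236 ± 16.3 CPM (SD, n = 3) with the CIP2A siRNAs (log2 difference -0.14, SE 0.084, edgeR adjusted p = 0.999). TOP2A, the topoisomerase that untangles chromosomes, lay at 509.9, 554 and 578 CPM in the controls and 501, 422 and 629 CPM with the CIP2A siRNAs. Its siCIP2A#2 library was the lowest and its siCIP2A#3 library the highest (log2 difference -0.081, SE 0.13, edgeR adjusted p = 0.999). SMC4, an ATPase core subunit of condensin, had the same extremes, at 496, 568 and 548 CPM in the controls and 488, 438 and 621 CPM with the CIP2A siRNAs. MKI67, which encodes the Ki-67 protein that coats mitotic chromosomes, stood at 682, 662 and 676 CPM in the controls and 592, 617 and 759 CPM with the CIP2A siRNAs. Its controls were the closest of all members, with siCIP2A#1 and siCIP2A#2 below and siCIP2A#3 above them. NCAPH ranged from 61.0 to 78.8 CPM, SMC2 from 237 to 274 CPM and NCAPD2 from 722 to 815 CPM.

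**Figure D3:**
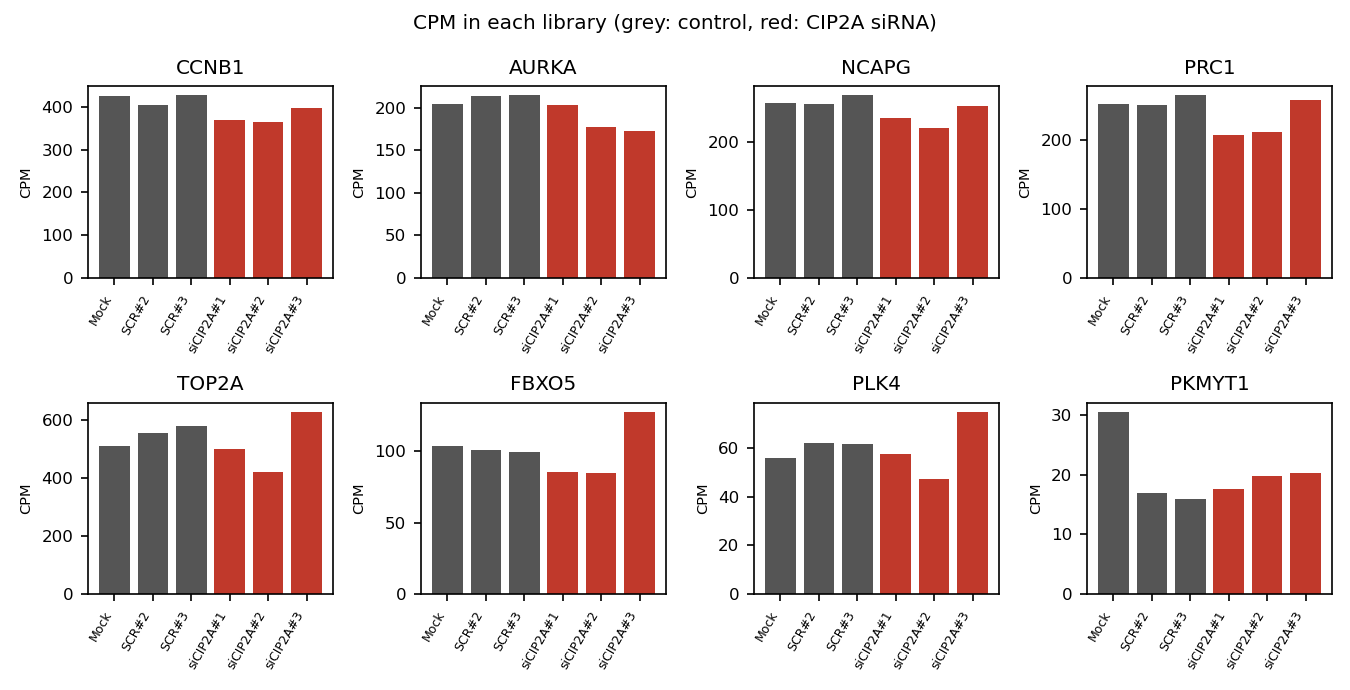
CPM of 8 members in each library, with 1 bar per library from 0, grey for the controls and red for the CIP2A siRNAs. In CCNB1, AURKA and NCAPG all red bars are below the grey ones, in TOP2A, FBXO5 and PLK4 the siCIP2A#3 bar is the highest, and in PKMYT1 the mock bar stands alone at 30.5 CPM.

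Each siRNA was then set against the 3 controls, which the 3 comparisons share. As each siRNA has 1 library, the spread in these tests comes from the controls alone. CIP2A itself had log2 differences of -2.62 with siCIP2A#1, -1.13 with siCIP2A#2 and -2.38 with siCIP2A#3. With siCIP2A#1, PRC1, CKAP2, NUSAP1, FBXO5 and UBE2C were lower at an unadjusted p under 0.05, and edgeR called 0 of 57 members, beside 0.118% of tested genes. Those 5 are read against 4.38% of tested genes that were lower at the same unadjusted p. At siCIP2A#1, PRC1 had a log2 difference of -0.30 (SE 0.094) and an edgeR adjusted p of 0.32, and CKAP2 one of -0.33 (SE 0.10). The values were -0.24 (SE 0.10) for NUSAP1, -0.24 (SE 0.10) for FBXO5, -0.28 (SE 0.12) for UBE2C and -0.19 (SE 0.083) for MKI67. WEE1 had the highest difference, at 0.25. The median over members was -0.081, with 47 below 0, beside 51.2% of tested genes.

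With siCIP2A#2, the median over members was -0.20 and 52 of 57 were below 0, beside 50.6% of tested genes. edgeR called 0 members, beside 0.0737% of tested genes. At an unadjusted p under 0.05, 14 members were lower and none higher, beside 6.21% of tested genes that were lower. These were AURKA, BUB1, CCNA2, CENPE, ECT2, FBXO5, NCAPG, NCAPH, PLK4, PRC1, SMC4, SPC24, TOP2A and TPX2. TOP2A had the smallest p (log2 difference -0.38, SE 0.099, edgeR adjusted p = 0.268). The log2 differences were -0.30 (SE 0.094) for CCNA2, -0.26 (SE 0.084) for TPX2, -0.28 (SE 0.094) for PRC1, -0.30 (SE 0.10) for SMC4 and -0.29 (SE 0.10) for ECT2. All 7 condensin, topoisomerase and chromosome surface genes were below 0, with a median of -0.24, and so were all 11 spindle and cytokinesis genes, with a median of -0.21. CDC25B was the highest member, at 0.20.

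With siCIP2A#3 the members lay slightly above the controls, with a median of 0.049 and 15 of 57 below 0, beside 52.0% of tested genes. edgeR called 0 members, beside 0.00737% of tested genes. At an unadjusted p under 0.05, FBXO5 and PLK4 were higher, beside 2.99% of tested genes, and AURKA was lower, beside 5.24%. The log2 differences were 0.33 (SE 0.10) for FBXO5, with an edgeR adjusted p of 0.497, 0.32 (SE 0.12) for PLK4 and -0.29 (SE 0.096) for AURKA. NUF2 had 0.30 (SE 0.13), BUB3 -0.21 (SE 0.095) and MKI67 0.17 (SE 0.081). All 4 transcription regulators were above 0, with MYBL2 the highest at 0.26.

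**Figure D4:**
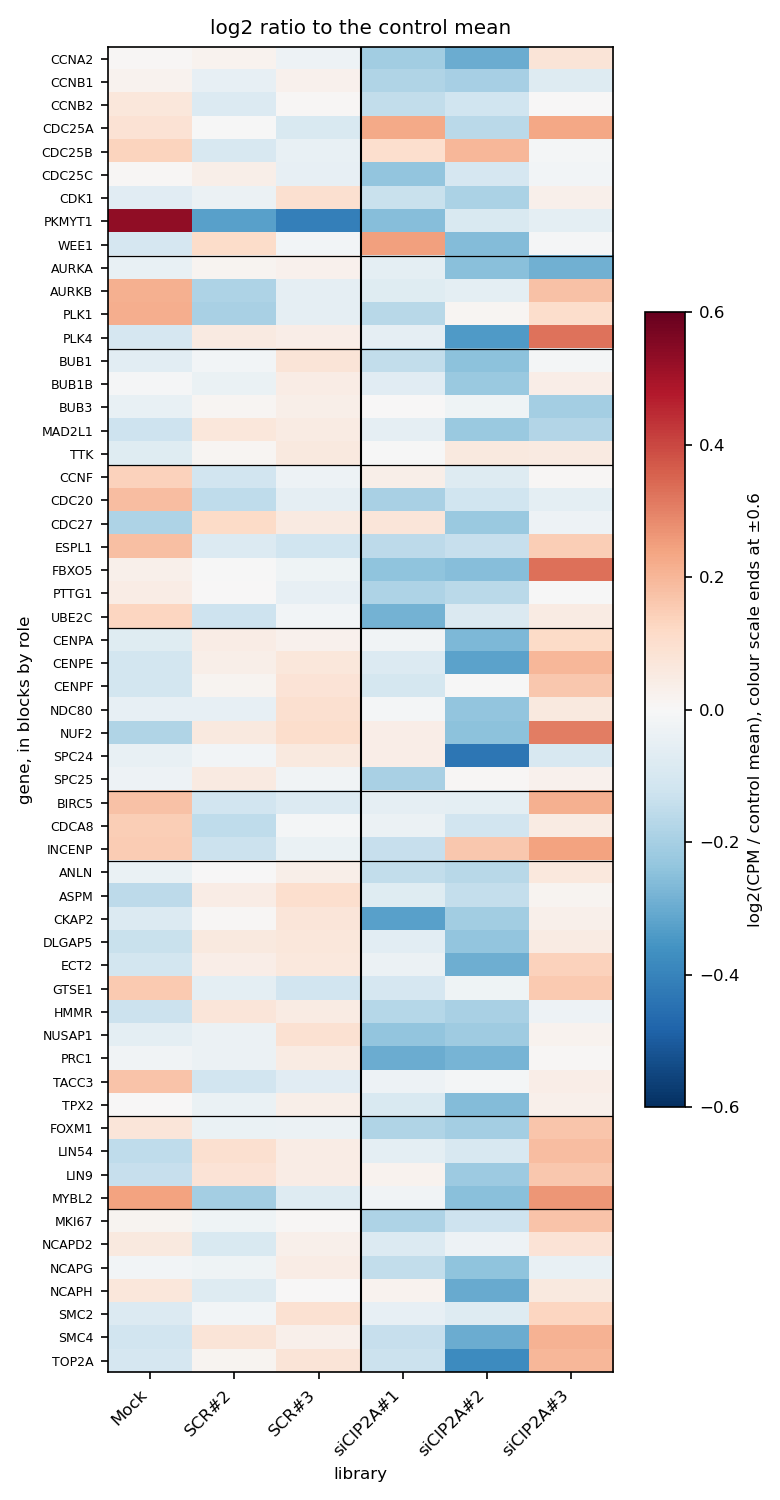
Log2 ratio of CPM to the control mean for the 57 members (rows, in blocks by role) in the 6 libraries (columns), blue for lower and red for higher, with the colour scale ending at 0.6 in either direction. The siCIP2A#2 column is mostly blue and the siCIP2A#3 column mostly red, and PKMYT1, PLK1, AURKB and MYBL2 are red in the mock and blue with SCR#2 and SCR#3.

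Set directly against each other, members lay lower with siCIP2A#1 and siCIP2A#2 than with siCIP2A#3, though none passed the test. Each is a comparison of 1 library with 1 library, with the spread taken from the controls. The genes named here were chosen after their values were seen. Of all tested genes, 48.4% lay below 0 between siCIP2A#2 and siCIP2A#3 and 49.6% between siCIP2A#1 and siCIP2A#3. Between siCIP2A#2 and siCIP2A#3, edgeR called 0 members, beside 0% of tested genes. At an unadjusted p under 0.05, 17 members were lower with siCIP2A#2, beside 7.37% of tested genes, and none was higher. TOP2A (log2 difference -0.58, SE 0.12, edgeR adjusted p = 0.135), FBXO5 (-0.59), PLK4 (-0.66), SMC4 (-0.51), CENPE (-0.52) and ECT2 (-0.43) had the smallest p. The median was -0.23, with 53 members below 0, and DESeq2 called 1 member, TOP2A, beside 0.923% of the genes to which it gave an adjusted p. In the other comparisons DESeq2 called 0 members, and limma-voom called 0 in all of them.

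Between siCIP2A#1 and siCIP2A#3, edgeR called 0 members, beside 0.509% of tested genes. At an unadjusted p under 0.05, 10 members were lower with siCIP2A#1, beside 5.6% of tested genes. They were CCNA2, CKAP2, FBXO5, FOXM1, INCENP, MKI67, PLK4, PRC1, SMC4 and TOP2A. FBXO5 had the smallest p (log2 difference -0.58, SE 0.13, edgeR adjusted p = 0.106), and the median over members was -0.17, with 49 below 0. Between siCIP2A#1 and siCIP2A#2, edgeR called 0 members, beside 0.0147% of tested genes. The median there was 0.031, and WEE1 (0.51), CDC25A (0.39), SPC24 (0.47) and NCAPH (0.32) were higher with siCIP2A#1 at an unadjusted p under 0.05, 4 members beside 6.71% of tested genes.

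Between the controls, PKMYT1 stood out but did not pass the test. It was at 30.5 CPM in the mock and at 16.8 and 15.9 CPM with the non-targeting siRNAs (log2 difference -0.90, SE 0.17, edgeR adjusted p = 0.61), which was the largest log2 difference of any member in any of the comparisons without offsets for GC content. edgeR called 0 members between non-targeting siRNAs and mock, beside 0% of tested genes. At an unadjusted p under 0.05, CDC20, PKMYT1, PLK1 and TACC3 were lower than in the mock, 4 members beside 5.18% of tested genes, and none was higher. The log2 differences were -0.29 (SE 0.12) for CDC20, -0.34 (SE 0.14) for PLK1 and -0.26 (SE 0.11) for TACC3. TACC3 is a spindle protein that AURKA phosphorylates. MYBL2 had -0.38 (SE 0.18), LIN54 0.22 (SE 0.16) and TOP2A 0.15 (SE 0.20). The median over the members was 0.029, 0.063 without SCR#2 and 0.014 without SCR#3.

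The difference between non-targeting siRNAs and mock varied with the base composition of the transcripts. Across the 57 members, Spearman's rho between GC content of the longest coding transcript and the log2 difference of non-targeting siRNAs from mock was -0.87, and across 12104 tested genes it was -0.64. The GC content ran from 35.3% in CENPE to 66.2% in PKMYT1, with a median of 43.2% over members and 48.3% over tested genes. For siCIP2A#2 against controls rho was 0.41 across members and 0.40 across tested genes, and for siCIP2A#3 it was -0.024 and -0.083. For siCIP2A#1 it was -0.018 and 0.14, and for the siCIP2A group 0.19 and 0.27. Between siCIP2A#2 and siCIP2A#3 it was 0.28 and 0.36, between siCIP2A#1 and siCIP2A#3 0.012 and 0.16, and between siCIP2A#1 and siCIP2A#2 -0.37 and -0.23. The genes of one library share its depth and preparation, so these values are a description. The comparisons were therefore repeated with offsets for GC content and length, a setting chosen after seeing the data.

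**Figure D5:**
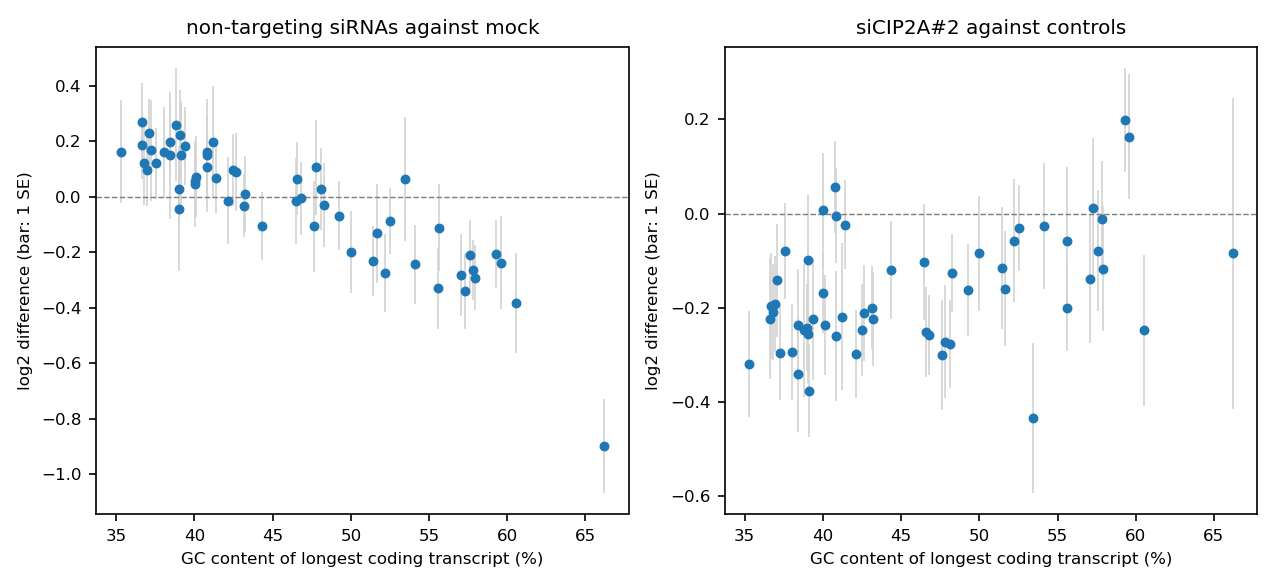
Log2 difference of each of the 57 members (vertical axis, bars of 1 SE) against the GC content of its longest coding transcript in percent, for non-targeting siRNAs against mock (left) and siCIP2A#2 against controls (right). On the left the points descend from left to right, with PKMYT1 at 66.2% GC and -0.90, and on the right most points lie below 0.

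With these offsets, CKAP2 and PRC1 were called lower with siCIP2A#1 against controls, 2 members beside 2.38% of tested genes, with edgeR adjusted p of 0.0319 and 0.0292. MYBL2 was called lower with siCIP2A#2, 1 member beside 1.07% of tested genes, at a log2 difference of -0.38 (SE 0.086, edgeR adjusted p = 0.0476), where it was -0.25 without the offsets. No member was called with siCIP2A#3 or in the group comparison. The median over members with siCIP2A#2 moved from -0.20 to -0.13, and there SMC4 moved to -0.19, ECT2 to -0.19, CCNB1 to -0.12 and CDK1 to -0.063. Between non-targeting siRNAs and mock the median became -0.051, with 44 of 57 members below 0. PKMYT1 was then at -0.53, CDC20 at -0.12, TACC3 at -0.10, PLK1 at -0.18, MYBL2 at -0.16, LIN54 at 0.060 and TOP2A at -0.010. Between siCIP2A#1 and siCIP2A#3, 11 members were called lower, beside 4.92% of tested genes, and between siCIP2A#2 and siCIP2A#3 also 11, beside 3.17%. In the latter comparison MYBL2 had a log2 difference of -0.69 (SE 0.10, edgeR adjusted p = 0.00568), FOXM1 of -0.47 (SE 0.079, edgeR adjusted p = 0.00992) and TOP2A of -0.48 (SE 0.081, edgeR adjusted p = 0.0104). These comparisons still rest on 1 library for each siRNA.

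Of the settings run, leaving out the mock moved the calls of single siRNAs the most. The spread then rests on SCR#2 and SCR#3 alone, with 1 residual degree of freedom. With siCIP2A#1, 10 members were called lower by edgeR, beside 6.28% of tested genes, and CDC25A was called higher, beside 7.48%. With siCIP2A#2, 30 members were called lower, beside 10.4% of tested genes, and CDC25B and INCENP were called higher, beside 12%. With siCIP2A#3, 12 members were called higher, beside 4.85% of tested genes, among them FBXO5, PLK4, FOXM1, MYBL2 and MKI67, while AURKA and BUB3 were called lower, beside 4.8%. The median with siCIP2A#3 was then 0.082, and MYBL2 was at 0.40. The group comparison called 0 members without the mock.

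Other cell cycle genes, from lists set by function, were summarised in the same way. On log2 CPM with a prior count of 2, relative to the control mean, the median of 84 other mitosis genes was -0.077 with siCIP2A#1, -0.11 with siCIP2A#2 and 0.088 with siCIP2A#3, and that of 54 DNA replication genes was -0.14, -0.16 and 0.014. For 25 kinesin motors it was -0.0096, -0.061 and 0.077. In the group comparison the median log2 difference was -0.034 for other mitosis genes, -0.10 for replication genes and 0.012 for kinesins, and edgeR called 0 genes of each list. Of all tested genes, 4.38% had all 3 siRNA libraries below all controls and 3.26% had them above. Below were 6 of the 84 mitosis genes, 7 of the 54 replication genes and 0 of the 25 kinesins. Above were 1, 0 and 2 of these lists. The differences between the members and these lists were not tested.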

How the data were processed

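Poly(A) RNA of 6 HCC38 libraries was sequenced after a stranded TruSeq mRNA preparation, per the labels' protocols. The authors deposited raw gene counts in 1 table of 26485 genes, per the file headers. bcl2fastq 2.17, STAR 2.5.4b, Subread 1.5.1 and the build hg38 are named, per the submitters' processing notes. No source used here gives the annotation, the use of strand or the counting of multiply mapped reads, so close copies and overlapping or antisense genes are uncertain. A spreadsheet had altered 51 of the deposited symbols, none of them a member.

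Genes were filtered with filterByExpr (minimum count 10) and scaled by TMM. Tests were the quasi-likelihood tests of edgeR 4.0.16 (glmQLFit with robust estimation, then glmQLFTest), run in R 4.3.3. Genes were called at a p under 0.05 after Benjamini-Hochberg adjustment over all 13562 tested genes. The group model had 4 residual degrees of freedom, the model of single siRNAs 2 and the mock model 3. The SE of a log2 difference is its size divided by the square root of F. DESeq2 1.42.0 and limma-voom (limma 3.58.1), other scaling factors, other filters, a replicate block, the mock as a separate level, left-out libraries and, chosen after seeing the data, GC and length offsets (available for 89.2% of tested genes) were alternatives. The scripts were tested on simulated data. Between libraries of 1 group, chi-square per degree of freedom was 3.10 to 17.1, so none was a copy.

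Members, lists and tests were chosen with earlier results of these data known. In the main setting, log2 differences with SE are named for the members with the smallest p. These are 10 in the group comparison, 6 for each siRNA and 4 for non-targeting siRNAs against mock. Any member called there was to be named as well. CDK1, CCNB1, PLK1, AURKA, FOXM1, MYBL2, LIN54 and TOP2A are given for the group comparison whatever their values. Members called only under an alternative are not all named. Coordinates and promoters came from RefSeq GRCh38.p14, and transcript GC and exon lengths from GENCODE 29.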

Additional observations from a re-analysis of the deposited data

How the results depend on the processing

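In the group comparison, 0 members were called under each of the 15 alternatives run, and the median stayed below 0 except without siCIP2A#2. The replicate block gave 0 calls of members, a median of -0.063 and 44 members below 0. Correlations of the deviations of same-numbered libraries from their group means were -0.12, -0.13 and 0.0076. Those of libraries with different numbers ran from -0.073 to 0.16. The libraries of a group had different treatments, so these values cannot tell whether same-numbered libraries were prepared together.

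When the mock formed its own level, PLK1 was 0.11 and LIN54 -0.055 in the group comparison. GC and length offsets gave -0.028 for MYBL2 there, 2 calls with siCIP2A#1, 1 with siCIP2A#2 and 22 summed over the 3 comparisons between siRNAs (11 in each with siCIP2A#3), and differences of -0.070 for PLK1 with siCIP2A#2 and of -0.056 for CDK1 and -0.010 for TOP2A between non-targeting siRNAs and mock. Upper quartile factors gave 0.0046 for MYBL2 with siCIP2A#1. Between siRNAs, DESeq2 made 1 call, TOP2A, beside 0.923% of genes. With no filter 5 calls were made, FBXO5 between siCIP2A#1 and siCIP2A#3, beside 1.59% of genes, and FBXO5, PLK4, SMC4 and TOP2A between siCIP2A#2 and siCIP2A#3, beside 1.1%. The cause of these moves was not tested.

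Leaving out each control library in turn, calls ranged from 0 to 11 with siCIP2A#1, 0 to 32 with siCIP2A#2, 0 to 14 with siCIP2A#3 and 0 to 64 summed over the 3 comparisons between siRNAs, the upper ends without the mock. The 11, 32 and 14 stood beside 13.8%, 22.4% and 9.65% of tested genes called in the same comparisons. Those 64 were 12 between siCIP2A#1 and siCIP2A#2, beside 16.7% of tested genes, 23 between siCIP2A#1 and siCIP2A#3, beside 18%, and 29 between siCIP2A#2 and siCIP2A#3, beside 22%. Leaving out each of the 6 libraries, group differences ranged from -0.10 to 0.11 for PLK1, -0.19 to 0.0016 for FOXM1, -0.13 to 0.15 for MYBL2, -0.079 to 0.066 for LIN54 and -0.25 to 0.045 for TOP2A. MYBL2 with siCIP2A#1 ranged from -0.11 to 0.12, PLK1 with siCIP2A#2 from -0.077 to 0.13, CDK1 with siCIP2A#3 from -0.00028 to 0.082, and CCNB1 between non-targeting siRNAs and mock from -0.069 to 0.0061. Of the alternative values for named genes, 21 changed sign, 28 passed the threshold that they had missed, and 690 did neither. With 1 library per siRNA, the median SE of a member was 0.11 on the log2 scale.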

Other observations

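In a narrower promoter window, 100 bases before to 50 after the start, chosen after seeing the data, TTTGAA or TTCGAA stood in 28 of 48 members (58.3%), in 4.34% of tested genes and in 7.43% of all promoters.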
